A study of Mus musculus with 2 samples.

Results

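Spp1-high microglia are brain macrophages that carry many transcripts of Spp1, the gene of the secreted phosphoprotein osteopontin. They were picked from droplet single-cell RNA data of mouse brain by raw counts of unique molecular identifiers (UMIs), each of which stands for 1 captured mRNA molecule. A cell barcode counted as a microglial cell when it held at least 500 genes, at least 1500 UMIs and at most 10% mitochondrial UMIs, at least 3 UMIs summed over the microglia genes P2ry12, Cx3cr1, Tmem119, Gpr34 and Trem2, and at most 1 UMI summed over Mrc1, Pf4 and F13a1, which mark border macrophages. It was Spp1-high when it also held at least 5 Spp1 UMIs. These limits gave 104 cells among 1807 microglia, 20741 barcodes within the quality limits and 32486 barcodes in all. The counts of these 9 genes chose the cells, so any level of them given below is a description, with no test.

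The study profiled freshly isolated brain cells of mice at postnatal day 10, of the strain labelled C57BL/J, with the 3' v3 kit of 10x Genomics. All cells belong to 1 group with no treatment, in 2 libraries numbered 1 and 2. The series names 6 mice and ties none of them to a library. Any p-value below therefore measures only how far a difference between cell classes varies from 1 library to the other, and that spread may be technical.

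Microglia are the resident macrophages of the brain tissue and depend on the receptor Csf1r. In the first postnatal days of the mouse, microglia in developing white matter take on an amoeboid form, engulf cells and debris and express Spp1, Igf1, Gpnmb, Itgax and lysosomal and lipid genes. This set of genes, known from axon tracts, overlaps with the one that microglia turn on around amyloid plaques and demyelinated lesions, which needs the lipid-sensing receptor Trem2. Osteopontin binds integrins and Cd44.

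The 2 libraries contributed very unequal numbers of these cells. Library 2 gave 98 Spp1-high microglia among 1715 microglia, and library 1 gave 6 among 92. Microglia made up 18.5% of the barcodes kept in library 2 and 0.801% of those kept in library 1. The files held 45532691 UMIs in library 2 and 51452085 in library 1, and the quality limits kept 47.4% of the barcodes of library 2 and 88.5% of those of library 1. The libraries shared 90 barcode sequences, none of which belonged to a Spp1-high cell.

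The 6 cells of library 1 differ in how clean they are, and 1 of them goes against its class. This barcode held 15249 UMIs, or 33.1% of the summed UMIs of the 6. It had 0 UMIs of Csf1r, C1qa, C1qb and C1qc, and its microglia genes were 5 UMIs of Tmem119. It also had 146 UMIs of fibroblast markers, among them 49 of the collagen gene Col1a1, and 48 UMIs of astrocyte markers. Another cell held 30 UMIs of neuron markers, and 1 more held 22 and 20 UMIs of oligodendrocyte and oligodendrocyte precursor markers, while the other 3 had at most 1 UMI of any other cell type. Results are therefore also given with every class limited to barcodes that hold at least 3 UMIs summed over Csf1r, C1qa, C1qb and C1qc, which removed this 1 barcode and none of the 98 Spp1-high cells of library 2.

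Spp1 transcripts sat in a small part of the microglia and reached high numbers there. Spp1-high cells were 5.71% of the microglia of library 2 (exact 95% binomial interval 4.66 to 6.92) and 6.52% of those of library 1 (2.43 to 13.7), so the shares of the 2 libraries did not differ beyond counting error. In library 2 the Spp1-high cells held between 5 and 420 Spp1 UMIs with a median of 22, whereas the 6 of library 1 held between 6 and 74 with a median of 27.5. At least 20 Spp1 UMIs were found in 55 of the 98 cells of library 2, and at least 100 in 18 of them. Intervals of this kind cover counting error only.

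The limit of 5 UMIs cut through a thin stretch of the distribution, not through a gap. Just inside it, library 2 had 7 microglia with 5 Spp1 UMIs and 5 with 6. Just outside it, 15 microglia had 4 UMIs, and 1496 of 1715 had 0. Because the limit is in raw UMIs it also depends on depth, and the median Spp1-high cell held 5860 UMIs in library 2 and 4989 in library 1, against 3263.5 and 3831 in microglia with 0 Spp1 UMIs. With every cell thinned to 1500 UMIs, 3.85% of the microglia of library 2 and 4.35% of those of library 1 still held at least 5 Spp1 UMIs.

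**Figure D1:**
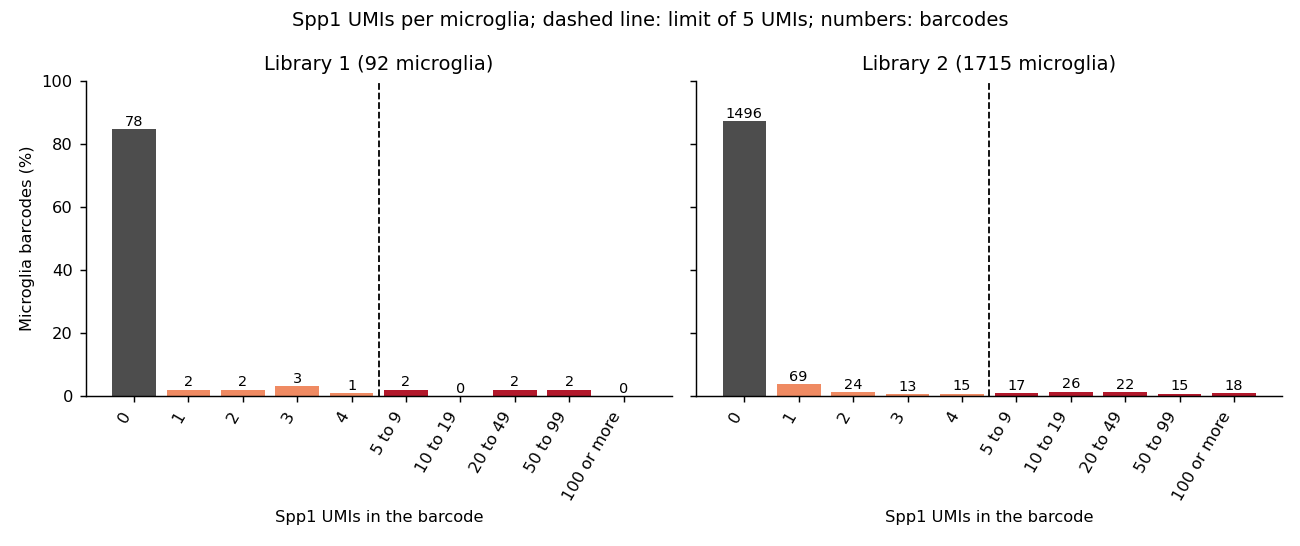
Share of microglia barcodes (vertical axis, in percent) by the number of Spp1 UMIs they held (horizontal axis), for library 1 on the left and library 2 on the right. Red bars right of the dashed line are the Spp1-high cells, 6 on the left and 98 on the right, while grey bars stand for the 78 and 1496 microglia with 0 Spp1 UMIs.

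Among the barcodes within the quality limits, these cells held 5677 of the 10421 Spp1 UMIs of library 2 (54.5%) and 207 of the 260 of library 1 (79.6%). Neuron barcodes were taken as those with at least 10 UMIs of neuron markers and no UMI of the microglia and border genes of the rule. This leaves out neuron barcodes with stray microglia transcripts, which can lower their share with Spp1. At least 1 Spp1 UMI was seen in 12.8% of the microglia of library 2 and in 1.02% of its neuron barcodes, which had a median depth of 2494 UMIs. In library 1 these shares were 15.2% of microglia and 0.0336% of neuron barcodes, at a median of 3157 UMIs. Border macrophages, taken here as barcodes with at least 3 UMIs of Mrc1, Pf4 and F13a1 and at least 3 of Csf1r and the C1q genes, also contained Spp1. In library 2, 18 of 479 of them reached 5 Spp1 UMIs (3.76%), and in library 1 none of 54 did (exact 95% interval 0 to 6.60). A further 29 barcodes of library 2 reached 5 Spp1 UMIs outside both gates, 14 of them with enough microglia UMIs but too many of border macrophages.

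Of the genes that chose the cells, P2ry12 was low in both libraries, while Trem2 and Gpr34 differed less in library 2. Levels are given as CPM (UMIs of the gene scaled to a common total) in the summed cells of a class, library 1 before library 2. Trem2 stood at 1238 and 2363 CPM in Spp1-high cells and at 1338 and 1528 CPM in microglia with 0 Spp1 UMIs, called Spp1-negative from here on. Gpr34, a receptor for lysophosphatidylserine, stood at 304.1 and 818 CPM in Spp1-high cells and at 756 and 927 CPM in Spp1-negative microglia. The purine receptor P2ry12 stood at 130.3 and 183 CPM in Spp1-high cells and at 564 and 622 CPM in Spp1-negative microglia. Trem2, which binds lipids and apolipoproteins, was thus lower in Spp1-high cells in library 1 and higher in library 2. Without the barcode that lacks macrophage UMIs, which held none of Trem2, it was higher in both, at 1852 and 2363 CPM in Spp1-high cells against 1368 and 1536 CPM in Spp1-negative microglia. P2ry12, which draws the processes of resting microglia to damage, was lower in both libraries either way. Cx3cr1 was lower in both as well, at 260.7 and 779 CPM in Spp1-high cells against 1087 and 1283 CPM in Spp1-negative microglia. Tmem119 stood at 130.3 and 20.5 CPM in Spp1-high cells and at 127 and 145 CPM in Spp1-negative microglia, and 5 of the 6 UMIs behind the value of library 1 came from the barcode without macrophage UMIs.

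Further markers of microglia and of border macrophages were compared, some of them used by the gates. Fcrls, a microglial Fc receptor-like gene, reached 1303 and 1439 CPM in Spp1-high cells and 1158 and 1293 CPM in Spp1-negative microglia, but also 1122 and 1210.0 CPM in border macrophages. Other microglia markers went in both directions. The receptor Csf1r was lower, at 304.1 and 599 CPM in Spp1-high cells, against 882.5 and 867 CPM in Spp1-negative microglia. Tyrobp was higher, at 3041 and 4453 CPM in Spp1-high cells, against 2075 and 2414 CPM in Spp1-negative microglia. Over 14 such microglia markers the summed level was 15880 and 22400 CPM in Spp1-high cells, 18730 and 20200 CPM in Spp1-negative microglia and 20620 and 18680 CPM in border macrophages. Sall1 and Selplg were at 0 UMIs in the 6 cells of library 1. The 14 include Csf1r, C1qa, C1qb and C1qc, which define the border gate and the requirement for macrophage UMIs. C1qa alone gave 4912 and 3601 CPM in border macrophages, so the level of the sum there is partly fixed by the gate. Without the barcode that lacks macrophage UMIs, the sum was 23620 CPM in Spp1-high cells of library 1, against 19150 CPM in Spp1-negative microglia. That rise follows in part from the requirement itself. Over 15 border macrophage markers the sum was 217 and 1072 CPM in Spp1-high cells, against 20200 and 7851 CPM in border macrophages. The 15 include Mrc1, Pf4 and F13a1, whose counts chose both classes, so much of this contrast was fixed by the gates. Pf4 alone gave 9736 and 3286 CPM in border macrophages. Of the genes outside the gates, Lyve1, Cd163, Cbr2 and Cd209g were at 0 UMIs in the Spp1-high cells of both libraries. Others were detected there. In Spp1-high cells Ms4a7 had 0 and 30.7 CPM, against 9.29 and 1.87 CPM in Spp1-negative microglia. Folr2 had 0 and 75.1 against 6.19 and 9.85 CPM, and Dab2 0 and 113 against 86.7 and 60.3 CPM. Stab1 had 130.3 and 316 against 111.5 and 120 CPM. Maf was lower in both libraries, at 65.2 and 473 against 604 and 664 CPM. The source of these transcripts was not tested. Lyve1 had 725 and 222 CPM in border macrophages.

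The marker sums of other cell types differed between classes in a few places. The fibroblast list stood at 3172 and 22.2 CPM in Spp1-high cells and at 991 and 69.5 CPM in Spp1-negative microglia. Globin and other red blood cell genes stood at 0 and 775 CPM in Spp1-high cells and at 0 and 6927 CPM in Spp1-negative microglia. At least 10 UMIs of other cell types were held by 17 of 98 Spp1-high cells of library 2 (17.3%) and by 272 of 1496 Spp1-negative microglia (18.2%), and in library 1 by 3 of 6 Spp1-high cells and by 18 of 78 Spp1-negative microglia. The monocyte list stood at 565 and 44.4 CPM in Spp1-high cells and at 92.9 and 58.1 CPM in Spp1-negative microglia, and at 130 CPM in Spp1-high cells of library 1 without the barcode that lacks macrophage UMIs. Its genes Ly6c2 and Ccr2 were at 0 UMIs in the Spp1-high cells and at or near 0 in the other classes. Of 10 neutrophil markers all 10 were at 0 in library 1 and 7 in library 2. The part of the fibroblast, monocyte and red blood cell signals in the results below was not tested, beyond the values without the barcode described above.

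The main question was how the rest of the transcriptome of Spp1-high cells differs from that of Spp1-negative microglia. For each library the UMIs of a class were added up, and the Spp1-high, Spp1-low (1 to 4 Spp1 UMIs), Spp1-negative and border macrophage sums were fitted together with edgeR's quasi-likelihood test and the library as a block. A gene was called when its p-value, adjusted over all genes by the Benjamini-Hochberg method, was under 0.05, its log2 fold change was at least 1 in size and its sign was the same in both libraries. Of 6059 genes tested, 40 were higher in Spp1-high cells (0.66%) and 9 were lower (0.149%), together 0.809%, and 498 had an unadjusted p under 0.05. The median log2 fold change over all genes was -0.03.

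These counts depend on the model. With no block for the library, edgeR called 3 genes, and DESeq2 called 29. With macrophage UMIs required in every barcode, edgeR called 68 genes higher (1.12%) and 21 lower (0.347%) of 6045 tested, together 1.47%, and 42 of the 48 earlier calls that could still be tested were among them.

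The genes of 2 growth factors rose. Igf1, which encodes an insulin-like growth factor that acts on neurons and oligodendrocyte precursors, had 304.1 and 627 CPM in Spp1-high cells, against 118 and 79.5 CPM in Spp1-negative microglia. Its fold was 6.09 (log2 2.61 ± 0.39, SE, edgeR adjusted p = 0.00394). Csf1, one of the ligands of Csf1r, had 86.9 and 219 CPM in Spp1-high cells, against 40.3 and 25.1 CPM in Spp1-negative microglia. Its fold was 6.97 (log2 2.80 ± 0.45, SE, edgeR adjusted p = 0.00435). For both genes the lower Spp1-high library lay above the higher Spp1-negative library. With 2 libraries per class this happens often without a difference, and its share over all genes tested is not given here. It is a description only. Of the 20 tested genes of growth factors and of TGF-beta, Csf1r and TAM receptor signalling, these were the 2 that were called, and the median log2 fold change of the 20 was 0.32.

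The largest log2 fold change was that of Gpnmb, a transmembrane glycoprotein of lysosomes and of lipid-laden macrophages. Spp1-high cells held 4 Gpnmb UMIs in library 1 and 209 in library 2, or 86.9 and 357 CPM. Spp1-negative microglia held 2 and 4 UMIs, or 6.19 and 0.68 CPM, although their summed depth was far larger. Pooled over libraries the ratio was 349 (counting interval 158 to 962), and the edgeR adjusted p was 2.04e-05. The 4 UMIs of library 1 came from 1 cell, the one that also held 30 UMIs of neuron markers, so the difference rests on library 2. That cell was also the 1 Spp1-high barcode of library 1 marked as a doublet. There, thinned to 1500 UMIs, 26.5% of Spp1-high cells had a Gpnmb UMI, against 0.0668% of Spp1-negative microglia.

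Other genes called higher encode proteins of the cell surface, among them Cd9, Plaur and Lag3. The tetraspanin gene Cd9 had 3563 and 3724 CPM in Spp1-high cells, against 1350 and 968 CPM in Spp1-negative microglia (log2 1.66 ± 0.32, SE). Plaur, the receptor of urokinase, had 108.6 and 125 CPM in Spp1-high cells, against 12.4 and 16.6 CPM in Spp1-negative microglia (log2 3.03 ± 0.40, SE). Lag3, an inhibitory receptor best known from T cells, had 152 and 258 CPM in Spp1-high cells, against 52.6 and 46.0 CPM in Spp1-negative microglia (log2 2.33 ± 0.36, SE). In all 3 the groups did not overlap, which is again a description only. The edgeR adjusted p-values were 0.0143 for Cd9, 0.00109 for Plaur and 0.00404 for Lag3. Lilrb4a, an inhibitory immunoglobulin-like receptor, also rose (log2 3.10), on 2 UMIs in the Spp1-high cells of library 1, and its reads may be shared with near-identical family members. Hpse, the heparan sulfate cutting enzyme heparanase, rose on few UMIs, 38 in Spp1-high cells and 21 in Spp1-negative microglia. Its ratio pooled over libraries was 17.8 (counting interval 10.2 to 31.9), and the interval leaves out the spread between cells and libraries.

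**Figure D2:**
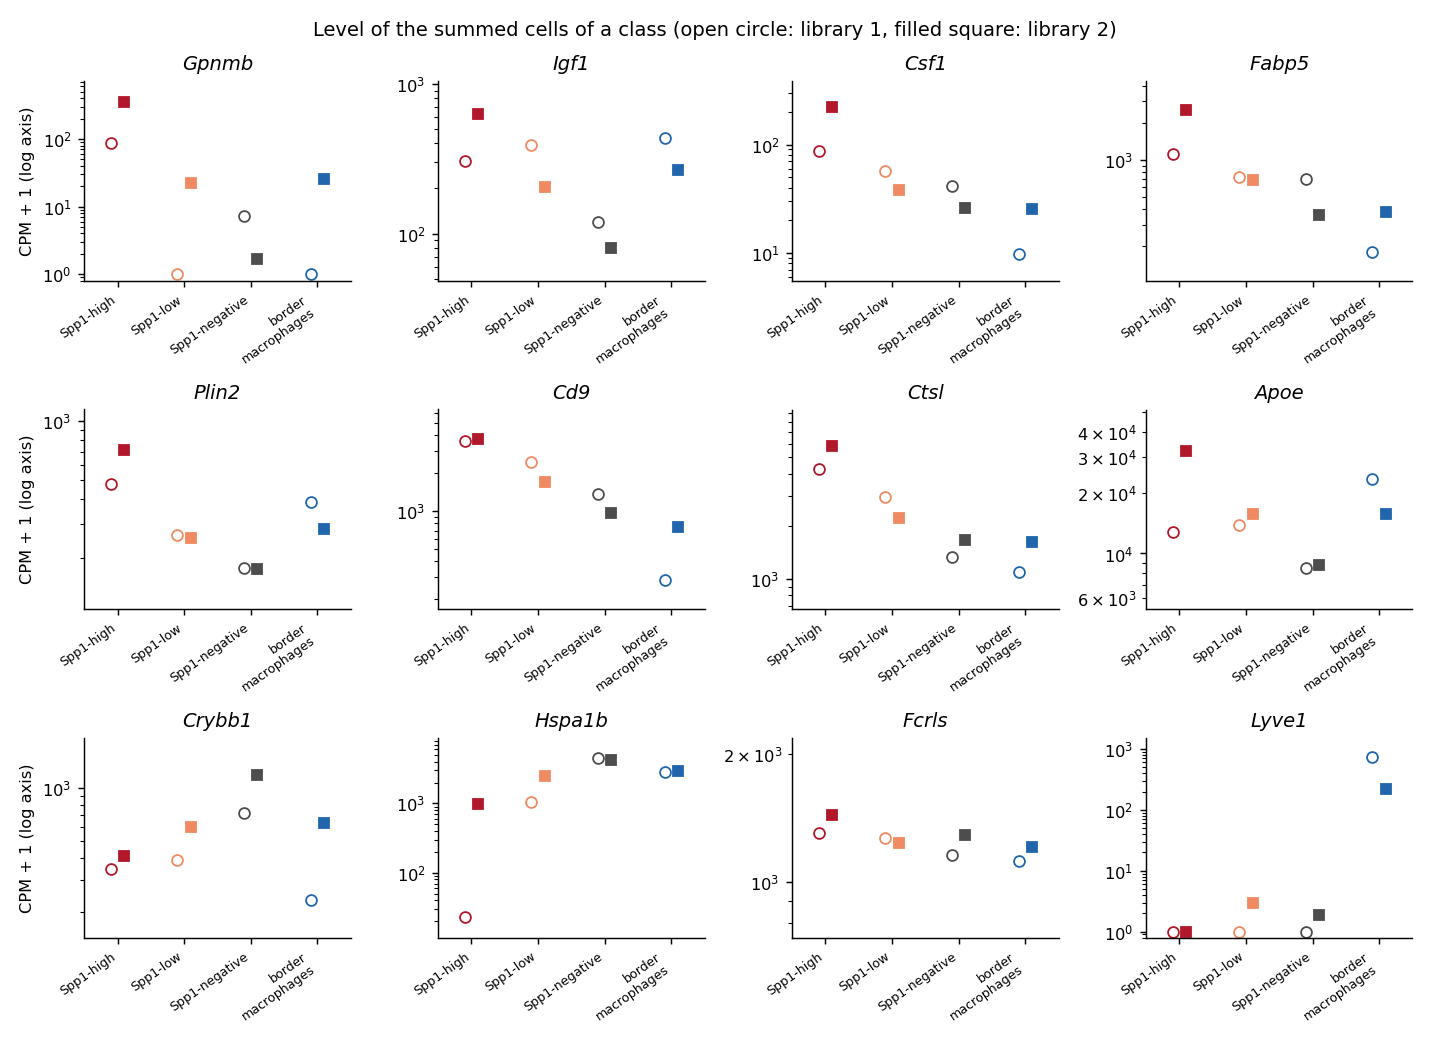
Level of 12 genes in CPM plus 1 (vertical axes, logarithmic) in the summed Spp1-high, Spp1-low and Spp1-negative microglia and border macrophages, with an open circle for library 1 and a filled square for library 2. Cd9 stood at 3563 and 3724 CPM in Spp1-high cells, above every other class, and Lyve1 was at 0 UMIs there.

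Many genes of the axon tract and disease-associated microglia list rose. Of its 42 genes 41 were in the files, 2 were used to choose the cells 31 passed the filter on low counts and 8 were too low to be tested. Of the 31, 18 were called higher and none lower, all 31 lay above 0, and the median log2 fold change was 1.77, against -0.03 over all genes tested. The list was drawn up with earlier results of these data known and holds genes that other work found beside Spp1, so its direction is not independent evidence, and a scarce gene could pass the filter only where it was high. Without the barcode that lacks macrophage UMIs, 21 of 32 were called higher, with a median of 1.94.

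Some well-known members of the list did not pass in the full set. Apoe, the apolipoprotein that is among the most abundant microglial transcripts, had 12820 and 32210 CPM in Spp1-high cells, against 8500 and 8772 CPM in Spp1-negative microglia (edgeR adjusted p = 0.051). Lpl, lipoprotein lipase, had 261 and 425 CPM in Spp1-high cells, against 102 and 141 CPM in Spp1-negative microglia (edgeR adjusted p = 0.058). With macrophage UMIs required both were called, with log2 fold changes of 1.52 for Apoe and 1.74 for Lpl and edgeR adjusted p-values of 2.66e-04 and 0.00481. Itgax, the integrin chain CD11c, failed the low-count filter in the full set and passed it under that requirement. It then had 32.5 and 114 CPM in Spp1-high cells against 0 and 2.22 CPM in Spp1-negative microglia. The Spp1-high value of library 1 was 1 UMI. Lgals3, the lectin galectin-3, had 0 and 326 CPM in Spp1-high cells, against 21.7 and 19.9 CPM in Spp1-negative microglia. It was not called because the sign differed between libraries. The values of library 1 were 0 UMIs and 7 UMIs, too few to give a direction there. With macrophage UMIs required it had log2 3.77 (edgeR adjusted p = 1.5e-05) and again failed on the sign. Anxa5 and Lgals1, called in the full set, lost the call without the barcode that lacks macrophage UMIs, since both then had a lower level in Spp1-high cells than in Spp1-negative microglia of library 1. These levels were 65.0 against 69.7 CPM for Anxa5 and 65.0 against 136 CPM for Lgals1. As 1 UMI was 32.5 CPM in those Spp1-high cells, both signs rest on few UMIs. Clec7a, a usual member of this list, was not analysed here.

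**Figure D3:**
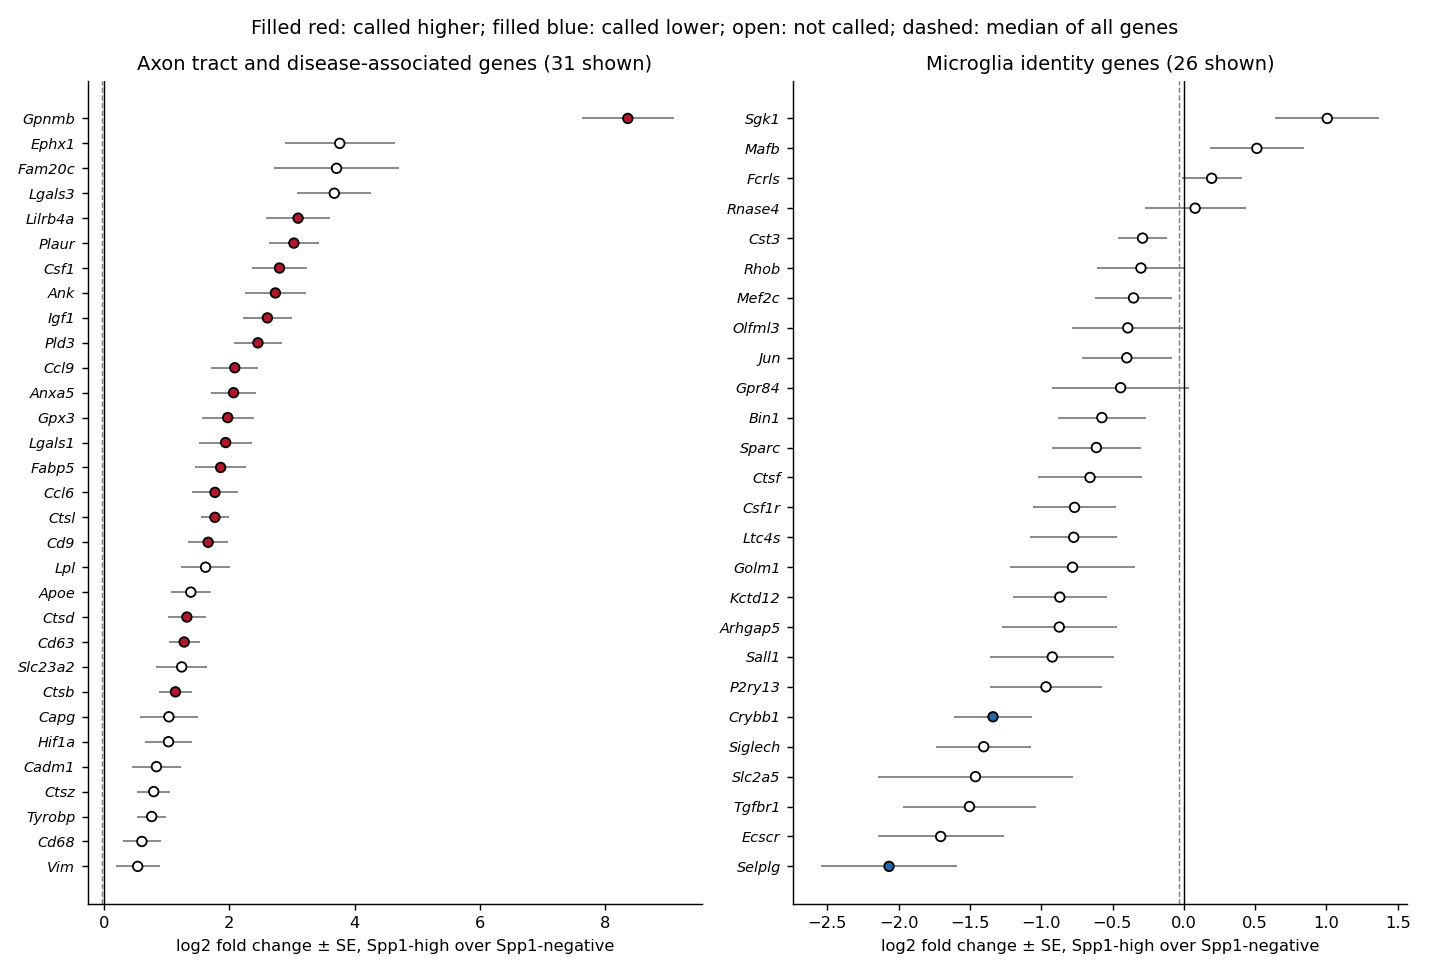
Log2 fold change of Spp1-high over Spp1-negative microglia (horizontal axes, bars are the standard error from the fit) for the 31 tested axon tract and disease-associated genes on the left and 26 of the 28 tested microglia identity genes on the right. All 31 lie above 0, with Gpnmb at 8.36, and 22 of the 26 identity genes shown lie below 0, with Selplg at -2.07.

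Genes of lipid handling rose in several steps of the pathway. Fabp5, a carrier of fatty acids in the cytosol, had 1130 and 2560 CPM in Spp1-high cells, against 700 and 355 CPM in Spp1-negative microglia (log2 1.86 ± 0.41, SE, edgeR adjusted p = 0.0386). Plin2, the coat protein of lipid droplets, had 478 and 714 CPM in Spp1-high cells, against 177 and 175 CPM in Spp1-negative microglia (log2 1.90 ± 0.31, SE, edgeR adjusted p = 0.00483). Soat1, which esterifies cholesterol for storage, had 152 and 186 CPM in Spp1-high cells, against 55.7 and 53.2 CPM in Spp1-negative microglia (log2 1.81 ± 0.33, SE, edgeR adjusted p = 0.0129). The apolipoprotein gene Apoc1 and the fatty acid carrier Fabp3 were called as well, at log2 2.10 and 3.23. Carriers, storage and lipoprotein genes were thus among the 5 of 18 tested lipid genes called higher, none was lower, and the median log2 fold change was 1.24. The cholesterol exporters Abca1 and Abcg1 were not called, at log2 0.20 and 0.26. None of the 10 tested genes of cholesterol synthesis was called by edgeR or DESeq2 in either direction, none had an unadjusted p under 0.05, and their median was 0.22.

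The genes of 3 cathepsins, proteases of the lysosome, rose, while most lysosomal genes did not pass, other cathepsins included. Ctsl, cathepsin L, had 4280 and 5778 CPM in Spp1-high cells, against 1328 and 1663 CPM in Spp1-negative microglia (log2 1.77 ± 0.22, SE, edgeR adjusted p = 0.00107). Ctsd, cathepsin D, had 2759 and 5199 CPM in Spp1-high cells, against 1561 and 1716 CPM in Spp1-negative microglia (log2 1.32 ± 0.30, SE, edgeR adjusted p = 0.047). Ctsb, cathepsin B, had 2955 and 5285 CPM in Spp1-high cells, against 1938 and 1926 CPM in Spp1-negative microglia (log2 1.14 ± 0.26, SE, edgeR adjusted p = 0.0452). With the tetraspanin Cd63 of late endosomes (log2 1.28), these made 4 of the 38 tested genes of lysosomes and the vacuolar ATPase. None was lower, 34 of 38 lay above 0 and the median log2 fold change was 0.73. The count was 6 of 38 with macrophage UMIs required. Grn, the gene of progranulin, had 782 and 1054 CPM in Spp1-high cells, against 576 and 559 CPM in Spp1-negative microglia, and was not called (log2 0.78).

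Among chemokines and cytokines, 3 of 20 tested genes were called higher and none lower, with a median log2 fold change of 0.53. They were Csf1 and the chemokines Ccl6 (log2 1.77 ± 0.37, SE) and Ccl9 (log2 2.09 ± 0.38, SE), a pair of neighbouring paralogs. Ccl9 had 152 and 160.5 CPM in Spp1-high cells, against 18.6 and 47.2 CPM in Spp1-negative microglia. Ccl3, an inflammatory chemokine, had 2129 and 1829 CPM in Spp1-high cells, against 1112 and 916 CPM in Spp1-negative microglia, and its log2 fold change of 0.98 was just under the limit (edgeR adjusted p = 0.029). When macrophage UMIs were required, 7 of 20 were called higher and none lower, with Ccl3 at log2 1.18 (edgeR adjusted p = 0.00158) and Cxcl2, Cxcl10 and Mif beside the first 3. The complement and phagocytic receptor list had 0 of 22 genes called by edgeR or DESeq2, with 4 higher and 1 lower at an unadjusted p under 0.05. C1qb stood at 2737 and 4062 CPM in Spp1-high cells and at 3409 and 3738 CPM in Spp1-negative microglia, so the groups overlapped. With macrophage UMIs required, C1qb stood at 4093 and 4062 CPM in Spp1-high cells and at 3487 and 3764 CPM in Spp1-negative microglia, and was not called. C1qb is part of that requirement, so its higher level in library 1 follows from the choice of barcodes. Of the list only the scavenger receptor Stab1 was then called higher (log2 1.40). Tyrobp was then just under the limit, at log2 0.95 (edgeR adjusted p = 0.00934). The MHC list and the interferon list likewise had no gene called by edgeR or DESeq2 among 11 and 6 tested, and in each of them 1 gene was higher and 1 lower at an unadjusted p under 0.05. The interferon-induced gene Mx1 was not analysed here.

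Of 11 tested genes of integrins, other receptors and matrix, Timp2, an inhibitor of metalloproteinases, was called (log2 1.28 ± 0.27, SE, edgeR adjusted p = 0.0289), with 543 and 558 CPM in Spp1-high cells against 254 and 226 CPM in Spp1-negative microglia. Itgb1, an integrin chain that can bind osteopontin, had 239 and 152 CPM in Spp1-high cells, against 248 and 236 CPM in Spp1-negative microglia (log2 -0.38). Cd44 was at 0 and 6.83 CPM in Spp1-high cells and at 0 and 4.08 CPM in Spp1-negative microglia, too few counts to be tested. Collagen Col1a1, at 1065 and 0 CPM in Spp1-high cells, came from the single barcode of library 1 described above. In barcodes with macrophage UMIs, 2 of 9 tested were called higher, Timp2 and the integrin chain Itgax (log2 5.78). Itgax did not pass the low-count filter of the full set, and it had 1 UMI in the Spp1-high cells of library 1. Its call therefore rests on library 2.

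Annexin genes rose in the full set. The annexin genes Anxa2, Anxa4 and Anxa5 and the lectin Lgals1 were the 4 called among 29 tested genes of cytoskeleton and migration, whose median log2 fold change was 0.08. S100a1, a calcium-binding protein outside that list, had 587 and 287 CPM in Spp1-high cells, against 74.3 and 53.7 CPM in Spp1-negative microglia (log2 2.65 ± 0.35, SE, edgeR adjusted p = 0.00109). The actin gene Actb had 9515 and 16730 CPM in Spp1-high cells, against 21670 and 21390 CPM in Spp1-negative microglia, and was not called (log2 -0.73, edgeR adjusted p = 0.127). With macrophage UMIs required, Anxa2 was the only gene of this list still called.

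Most identity genes of microglia lay below 0, with few calls. Of 28 tested, 2 were called lower and none higher, 23 lay below 0 and the median log2 fold change was -0.71. Crybb1, a crystallin gene typical of young microglia, had 348 and 413 CPM in Spp1-high cells, against 722 and 1168 CPM in Spp1-negative microglia (log2 -1.34 ± 0.27, SE, edgeR adjusted p = 0.0246). Selplg, the ligand of P-selectin, had 0 and 37.6 CPM in Spp1-high cells, against 158 and 132 CPM in Spp1-negative microglia (log2 -2.07 ± 0.48, SE, edgeR adjusted p = 0.048). Fcrls was not called (log2 0.20). Siglech, a sialic acid-binding receptor, had 108.6 and 135 CPM in Spp1-high cells, against 307 and 347 CPM in Spp1-negative microglia (edgeR adjusted p = 0.056). With macrophage UMIs required it was called, as was Ecscr, and 5 of 28 were lower in all. Among 27 tested transcription factors of macrophages none was called by edgeR or DESeq2, with 5 higher and 2 lower at an unadjusted p under 0.05, and with macrophage UMIs required Mitf was called higher (log2 1.87).

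The heat shock gene Hspa1b fell to 21.7 and 985 CPM in Spp1-high cells, against 4493 and 4212 CPM in Spp1-negative microglia (log2 -2.96 ± 0.54, SE, edgeR adjusted p = 0.0112). It encodes an inducible chaperone, and its near-identical neighbour Hspa1a may share its reads. Hspa1a had 21.7 and 1369 CPM in Spp1-high cells, against 4159 and 3627 CPM in Spp1-negative microglia (edgeR adjusted p = 0.101). Thinned to 1500 UMIs, 39.8% of Spp1-high cells of library 2 had a Hspa1b UMI, against 70.3% of Spp1-negative microglia. Of the dissociation and immediate early list 1 of 26 tested genes was called, and the median log2 fold change was -0.07. In barcodes with macrophage UMIs, 3 of 26 were called lower, Hspa1b, Hspa1a (log2 -2.12, edgeR adjusted p = 0.00419) and the small heat shock gene Hspb1 (log2 -2.04, edgeR adjusted p = 0.0059). Fos had 434.5 and 280.0 CPM in Spp1-high cells, against 365 and 344 CPM in Spp1-negative microglia, and the constitutive chaperone Hspa8 had 1238 and 1083 CPM in Spp1-high cells, against 1316 and 1133 CPM in Spp1-negative microglia.

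Genes of DNA replication lay below 0 in Spp1-high cells, with no call among those of the list. None of 23 tested S phase genes was called by edgeR or DESeq2, but all 23 lay below 0, with a median log2 fold change of -1.16, and 10 had an unadjusted p under 0.05. Among 31 tested G2/M genes none was called by either tool, 2 had an unadjusted p under 0.05 and the median was -0.39. Some chromatin genes were called lower. These were Hmgb2, with 195.5 and 440.5 CPM in Spp1-high cells against 796 and 1002 CPM in Spp1-negative microglia (log2 -1.36 ± 0.27, SE), and the replication-dependent histone genes Hist1h2ae and Hist1h2ap (log2 -2.34 and -1.90), which belong to a family of near-identical copies. Thinned to 1500 UMIs, 14.3% of Spp1-high cells of library 2 (95% interval 8.04 to 22.8) had at least 3 S phase genes, against 25.3% of Spp1-negative microglia (23.2 to 27.6). Mki67, a marker of cycling cells, was seen in 8.16% of Spp1-high cells and 9.09% of Spp1-negative microglia after thinning.

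Glycolytic genes lay above 0 in most cases and none passed in the full set. Of 16 tested, 14 lay above 0, 12 were higher at an unadjusted p under 0.05, the median log2 fold change was 0.95, edgeR called none and DESeq2 called 1. Pkm, which makes pyruvate in the last step of glycolysis, had 739 and 715 CPM in Spp1-high cells, against 378 and 335 CPM in Spp1-negative microglia (log2 1.05, edgeR adjusted p = 0.125). With macrophage UMIs required, 4 of 16 were called higher, namely Pkm, Tpi1, Ldha and the lactate transporter Slc16a3. The 28 tested nuclear-encoded genes of oxidative phosphorylation had a median of 0.27 and no call by edgeR or DESeq2, with 2 higher at an unadjusted p under 0.05. None of 10 tested iron handling genes was called by either tool, with 2 higher at an unadjusted p under 0.05, although Ftl1, the ferritin light chain, stood at 4801 and 8686 CPM in Spp1-high cells against 4261 and 4632 CPM in Spp1-negative microglia.

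The remaining genes called higher with enough counts were of mixed function. Syngr1, a synaptogyrin of vesicle membranes, had 695 and 972 CPM in Spp1-high cells, against 254 and 226 CPM in Spp1-negative microglia (log2 1.84 ± 0.31, SE, edgeR adjusted p = 0.00679). Pld3, an endolysosomal nuclease, had 174 and 331 CPM in Spp1-high cells, against 49.5 and 57.9 CPM in Spp1-negative microglia (log2 2.46 ± 0.38, SE, edgeR adjusted p = 0.00404). Ank, an exporter of ATP and pyrophosphate, had 108.6 and 68.3 CPM in Spp1-high cells, against 9.29 and 12.6 CPM in Spp1-negative microglia (log2 2.74 ± 0.49, SE, edgeR adjusted p = 0.0106). In each of these the Spp1-high libraries lay above both Spp1-negative libraries, again as a description only. Sparcl1, mainly a gene of astrocytes and vessels, was called lower, with 0 UMIs in the Spp1-high cells of both libraries against 31 and 140 UMIs in Spp1-negative microglia.

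**Figure D4:**
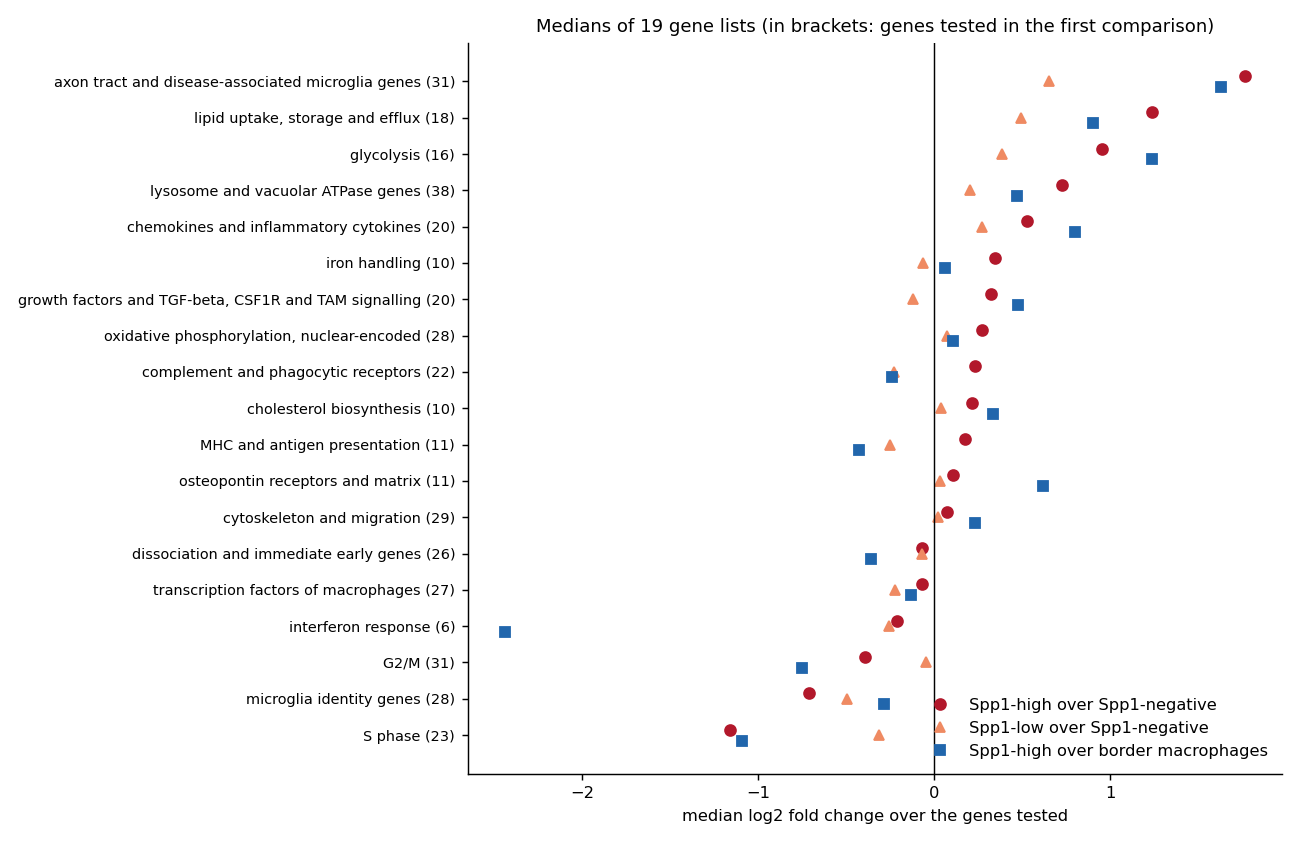
Median log2 fold change over the tested genes (horizontal axis) of 19 gene lists (rows) for Spp1-high over Spp1-negative microglia (red circles), Spp1-low over Spp1-negative microglia (orange triangles) and Spp1-high microglia over border macrophages (blue squares). The axon tract list has the highest red value at 1.77 and the S phase list the lowest at -1.16.

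Spp1-high cells also differed among themselves. Library 2 microglia were summed by their number of Spp1 UMIs, in bins of 0, 1 to 4, 5 to 9, 10 to 29 and at least 30, which held 1496, 121, 17, 36 and 45 cells. These bins share a library, differ in depth (median UMIs of 3263.5, 3188, 5568, 4849.5 and 6938) and are a description with no test. Fabp5 went up through all 5 bins, at 355, 686, 1186, 1592 and 3541 CPM. Igf1 did so too, at 79.5, 204, 371, 456 and 803 CPM. Gpnmb was at 0.68, 21.6, 12.4, 137 and 589 CPM, so it was scarce in cells with 5 to 9 Spp1 UMIs and was found mainly in those with at least 10.

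Apoe and Csf1 did not go up steadily. Apoe was at 8772, 15720, 34920, 26730 and 35010 CPM through the bins, and Csf1 at 25.1, 37.2, 198, 142 and 273 CPM. Identity genes ran the other way, with Crybb1 at 1168, 602, 692, 654 and 185 CPM and P2ry12 at 622, 362.5, 235, 269 and 114 CPM. The bin of 5 to 9 Spp1 UMIs rests on 17 cells and on 1 Gpnmb UMI, and its values for scarce genes are imprecise. In library 1 this bin held 2 cells, 1 of them the barcode without macrophage UMIs, with Apoe at 3283 CPM.

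**Figure D5:**
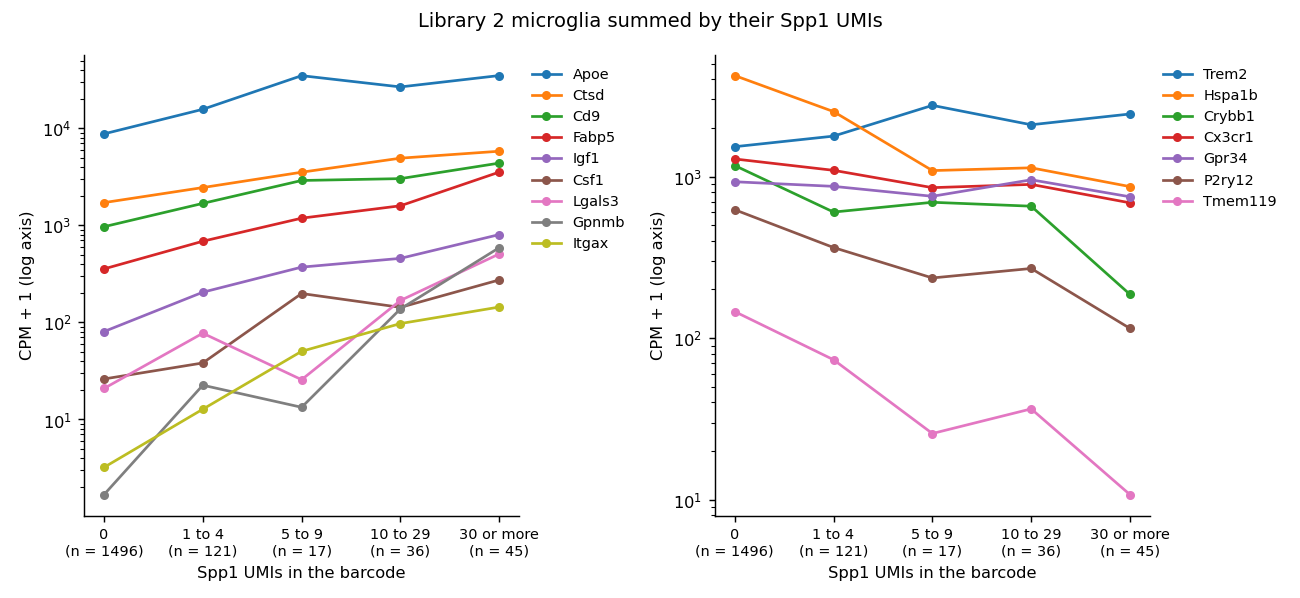
Level in CPM plus 1 (vertical axes, logarithmic) of genes in library 2 microglia summed by their Spp1 UMIs (horizontal axes, with the number of cells in each bin). On the left Fabp5 runs to 3541 CPM and Gpnmb to 589 CPM in the bin of at least 30 Spp1 UMIs, and on the right P2ry12 ends at 114 CPM.

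Within the 98 Spp1-high cells of library 2, detection of other genes of the set was uneven. A UMI was seen for Igf1 in 79, Gpnmb in 42, Itgax in 36 and Lgals3 in 29. The 42 cells with a Gpnmb UMI were deeper (median of 6669.5 UMIs, against 4962 in the 56 without) and had more Spp1 (median of 56 UMIs, against 14). In CPM, which takes depth into account, they also had more Apoe (41230 CPM, against 23490 CPM), more Fabp5 (3568 CPM, against 1585 CPM) and less P2ry12 (111 CPM, against 252 CPM). Csf1 was alike in cells with and without Gpnmb, at 219 and 218 CPM. Apoe was present in every Spp1-high cell of library 2, and its share of a cell's UMIs varied widely among them.

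Cells with 1 to 4 Spp1 UMIs were compared with the same Spp1-negative microglia, so this comparison shares its reference sums with the one above. Of 6059 genes tested 1 was called higher (0.0165%) and 0 lower by edgeR, DESeq2 also called 1 higher and 0 lower, and 110 genes were higher and 100 lower at an unadjusted p under 0.05. The gene was Riiad1, whose product carries a regulatory subunit fold of protein kinase A, at 130 and 99.9 CPM in Spp1-low cells, against 6.19 and 7.30 CPM in Spp1-negative microglia (log2 3.79 ± 0.55, SE, edgeR adjusted p = 0.0165). It rests on few cells, since 43 of its 51 UMIs in library 2 were in 1 of 121 cells and all 7 of library 1 were in 1 of 8. Of the genes that rose in Spp1-high cells, Igf1 had 391 and 204 CPM in Spp1-low cells and was not called (log2 1.39, edgeR adjusted p = 1), and Cd9 had 2458 and 1685 CPM (log2 0.70). Of the 31 tested axon tract genes none was called by edgeR or DESeq2, 9 were higher at an unadjusted p under 0.05, 29 lay above 0 and the median log2 fold change was 0.65, against -0.01 over all genes tested.

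Spp1-high microglia were also set against border macrophages, the macrophages of meninges and perivascular spaces. This comparison uses the same Spp1-high sums as the first. Of 6055 genes tested, 43 were higher in Spp1-high microglia (0.71%) and 47 were lower (0.776%), together 1.49%. With macrophage UMIs required, 75 were higher (1.24%) and 80 lower (1.32%) of 6041 tested, together 2.57%. With no block for the library 39 genes were called in all, and with a stricter border gate of at least 10 UMIs of Mrc1, Pf4 and F13a1 149 were higher and 197 lower. The border gate of library 2 held a median of 13 UMIs of the 5 microglia genes and a border marker sum of 7851 CPM, against 3 UMIs and 20200 CPM in library 1, so the border gate of library 2 carried more microglia transcripts.

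The lower genes include the markers of the border class. Lyve1, a hyaluronan receptor, had 0 UMIs in Spp1-high microglia of both libraries and 725 and 222 CPM in border macrophages. The scavenger receptor Cd163 likewise had 0 UMIs in Spp1-high microglia and 157 and 73.5 CPM in border macrophages. Retnla, a secreted resistin-like protein, had 0 and 1.71 CPM in Spp1-high microglia, against 3855 and 306.0 CPM in border macrophages. The chemokine gene Ccl7 was lower as well, and had 0 and 23.9 CPM in Spp1-high microglia, against 668 and 166 CPM in border macrophages (log2 -3.35 ± 0.52, SE, edgeR adjusted p = 0.00136). Of the 6 tested interferon genes 2 were lower, Ifitm3 (log2 -3.45) and Ifi27l2a (log2 -3.38), and the transcription factor Maf fell by 1.92 on the log2 scale.

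Surface, lipid and growth factor genes described above were compared with border macrophages as well. Lag3 had 152 and 258 CPM in Spp1-high microglia, against 13.1 and 25.02 CPM in border macrophages (log2 3.43 ± 0.39, SE, edgeR adjusted p = 1.58e-04). Cd9, with 284 and 747 CPM in border macrophages, was higher in Spp1-high microglia (log2 2.77 ± 0.33, SE), and so was Fabp5, with 179 and 378 CPM there (log2 2.74 ± 0.41, SE). Igf1 had 304.1 and 627 CPM in Spp1-high microglia, against 432 and 266 CPM in border macrophages, so the groups overlapped and it was not called (log2 0.73, edgeR adjusted p = 0.578). Apoe also overlapped, at 12820 and 32210 CPM in Spp1-high microglia and 23400 and 15760 CPM in border macrophages. Lgals1 was called against Spp1-negative microglia, but had 217 and 545 CPM in Spp1-high microglia, against 1310 and 671 CPM in border macrophages. Of 31 tested axon tract genes 13 were called higher and none lower against border macrophages, with a median log2 fold change of 1.63, against -0.04 over all genes, and with macrophage UMIs required 20 of 32.

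Genes of glycolysis and chemokines were among the calls against border macrophages. Of 16 tested glycolytic genes 4 were called higher and none lower, with a median log2 fold change of 1.24. They were Aldoa, Tpi1, Pkm and the lactate transporter Slc16a3, and Pkm had 739 and 715 CPM in Spp1-high microglia, against 153 and 309.5 CPM in border macrophages (log2 1.58 ± 0.29, SE, edgeR adjusted p = 0.00611). Hif1a, a transcription factor that acts on glycolytic genes in low oxygen, had 239 and 188 CPM in Spp1-high microglia, against 30.6 and 78.5 CPM in border macrophages (log2 1.67 ± 0.38, SE, edgeR adjusted p = 0.0282). Of 20 tested chemokine and cytokine genes 6 were higher (Ccl3, Ccl4, Ccl6, Cxcl10, Csf1 and Mif) and 2 lower (Ccl2 and Ccl7). Ccl3 and Ccl4 are close paralogs whose reads may be shared. When macrophage UMIs were required, 9 of 16 glycolytic genes were higher, and 7 of 20 chemokine and cytokine genes were higher and 3 lower.

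The promoters of 4 genes are shown because these genes carry the results on surface and lysosomal genes, together with Spp1 itself. Sequences are from RefSeq on GRCm38.p6, from 250 bases before to 50 after a start site, 5′ to 3′ on the strand of the gene. Capitals mark the letters GAGGAAGT (a PU.1-type motif) in Spp1, TGANTCA (the AP-1 motif) in Gpnmb and Plaur and CACGTG (an E-box) in Ctsd, each searched on both strands.
Spp1, the first of 2 start sites, chr5:104434861-104435160, plus strand: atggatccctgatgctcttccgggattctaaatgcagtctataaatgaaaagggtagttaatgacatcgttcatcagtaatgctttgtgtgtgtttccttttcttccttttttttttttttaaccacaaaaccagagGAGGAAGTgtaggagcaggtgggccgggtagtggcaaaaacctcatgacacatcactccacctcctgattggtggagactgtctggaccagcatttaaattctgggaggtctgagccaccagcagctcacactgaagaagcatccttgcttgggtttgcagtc
Gpnmb, chr6:49036268-49036567, plus strand: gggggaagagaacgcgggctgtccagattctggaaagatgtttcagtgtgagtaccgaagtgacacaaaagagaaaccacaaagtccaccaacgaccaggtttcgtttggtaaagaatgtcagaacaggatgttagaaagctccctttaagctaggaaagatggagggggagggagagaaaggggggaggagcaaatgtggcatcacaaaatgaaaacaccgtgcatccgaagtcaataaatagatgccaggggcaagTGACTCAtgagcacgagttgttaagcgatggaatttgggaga
Plaur, chr7:24462233-24462532, plus strand: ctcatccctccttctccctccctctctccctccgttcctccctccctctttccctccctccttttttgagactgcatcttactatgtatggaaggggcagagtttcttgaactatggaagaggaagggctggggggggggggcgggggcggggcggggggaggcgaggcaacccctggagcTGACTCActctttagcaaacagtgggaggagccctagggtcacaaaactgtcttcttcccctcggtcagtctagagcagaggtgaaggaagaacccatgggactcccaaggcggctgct
Ctsd, chr7:142387778-142388077, minus strand: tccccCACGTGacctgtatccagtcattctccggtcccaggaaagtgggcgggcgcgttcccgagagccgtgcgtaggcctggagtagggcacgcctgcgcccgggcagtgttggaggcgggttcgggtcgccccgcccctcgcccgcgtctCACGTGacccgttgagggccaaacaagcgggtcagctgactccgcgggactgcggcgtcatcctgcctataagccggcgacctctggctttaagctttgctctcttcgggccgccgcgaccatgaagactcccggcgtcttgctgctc

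Of the 40 genes called higher than in Spp1-negative microglia, 32 matched a promoter. The AP-1 letters were in a promoter of 5 of these 32 (Anxa2, Ccl9, Gpnmb, Igf1 and Plaur), or 15.6%, and in a promoter of 8.97% of all 27025 genes of the table and 7.81% of its 32851 promoters. The E-box letters were in 4 of the 32 (Ctsd, Ctsl, Gadd45b and Plin2), or 12.5%, and in a promoter of 8.09% of all genes and 7.15% of promoters. The PU.1-type letters were in 1 of the 32 (Selenop), or 3.12%, and in a promoter of 3.69% of all genes and 3.2% of promoters. A match in this window is a description of the letters and no evidence of binding.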

How the data were processed

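Per the file headers, the deposited matrices hold raw counts of UMIs for 32285 features in each barcode, and all values were whole. Per the submitters' processing notes, the authors' tool was Cell Ranger 6.1.2 and the genome build mm10. No source used here gives the settings for calling cells. The files of the libraries held 51452085 and 45532691 UMIs. A low count limits precision: 6 Spp1-high cells of library 1 gave 46031 UMIs and 98 of library 2 gave 585651.

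The cells were chosen with the given rule and the gene lists were drawn up with earlier results of these data known. Raw UMIs were summed per library for 4 classes (Spp1-high, Spp1-low with 1 to 4 Spp1 UMIs, Spp1-negative with 0, border macrophages). The 8 sums were fitted with edgeR 4.0.16 in R 4.3.3 (TMM, filterByExpr, quasi-likelihood F test, 3 residual degrees of freedom, Benjamini-Hochberg over all genes tested). The library entered as a block because the 4 sums of a library come from the same cell suspension, so the library number pairs them by design. The fit was tested on simulated data with 5301 genes for the comparison of Spp1-high with Spp1-negative microglia: it called 92.0% of genes raised 4-fold, 17.8% of genes raised 2-fold and 0.117% of unchanged genes. Lowered genes were called less often, 56.5% at 0.25-fold and 9.09% at 0.5-fold. The counts of genes called higher and lower are therefore not directly comparable. The simulation gave every gene the same dispersion (0.0378) and no difference between libraries. Genes used by the rule got no test. Pooled ratios and shares have exact intervals at 95%, which cover counting error only. Symbols shared by several features were told apart by gene identifier.

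Genes were named by a rule: in each comparison the 12 with the largest log2 fold change in each direction among those called with a mean of at least 50 CPM and at least 3 UMIs per library in the higher class, and from 19 lists the called members and the 4 with the highest level in Spp1-high microglia. Of 544 list entries 2 genes were not analysed here. Abca1, Abcg1, Cd44, Cxcl2, Ecscr, Hpse, Hspb1, Itgax, Lgals3, Mitf, Sall1, Selenop, Siglech, Stab1, Syngr1 and Mki67 were named outside this rule, after their values were seen. The border markers Ms4a7, Folr2 and Dab2 were also named in that way. Doublets were kept in the main results. With an expected rate of 6%, Scrublet (scanpy 1.11.5) marked 514 barcodes of library 1 and 253 of library 2, of which 1 and 4 were Spp1-high. Alternatives were DESeq2 1.42.0, other size factors, no low-count filter, no block, other limits on Spp1, depth, quality, gates, doublets and division, thinning to 1500 UMIs, and 4 added after seeing the data, namely macrophage UMIs required, fewer than 10 UMIs of other cell types, a stricter border gate and the Spp1 limit after thinning. Promoters came from RefSeq on GRCm38.p6.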

Additional observations from a re-analysis of the deposited data

How the results depend on the processing

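With 6 Spp1-high cells in library 1, every difference rests on the depth of library 2 and on the same sign in library 1, and genes under about 3 UMIs in library 1 could change sign by counting error. Against Spp1-negative microglia, 49 genes were called. The count was 89 with no filter on low counts (where the median of all genes was -0.32), 3 with no replicate block, 29 with DESeq2, 26 with stricter quality limits, 89 with macrophage UMIs required and 79 with fewer than 10 UMIs of other cell types. The library pairs the sums by design, and the fit without the block counts differences between libraries as error. For Spp1-low cells, where 1 gene was called, the count was 14 with no filter, 2 with Spp1-high at 10 UMIs, 0 without doublets, 0 in non-dividing cells, 0 with the microglia gate at 6 UMIs (Riiad1 did not pass the filter in these 3), 1 after thinning (a lower gene), 5 with border macrophage genes at 0 UMIs, 3 with macrophage UMIs required and 5 with fewer than 10 UMIs of other cell types. Against border macrophages, where 90 genes were called, it was 175 with no filter, 39 with no replicate block, 137 with the microglia gate at 6 UMIs, 155 with macrophage UMIs required, 139 with fewer than 10 UMIs of other cell types and 346 with the stricter border gate. Unless stated, the cause was not tested. The share of Spp1-high cells, 6.12% as a mean of the libraries, was 9.11% with a limit of 3 UMIs, 4.54% with 10, 8.60% in cells of at least 3000 UMIs, 7.51% with border macrophage genes at 0 UMIs, 5.17% with fewer than 10 UMIs of other cell types and 4.10% with the limit applied after thinning, and 5.71% to 6.52% in single libraries. Of 38 named genes called against Spp1-negative microglia, none reversed. Not every gene could be tested in each of the 15 settings with a test. Over 538 such fits the call was kept in 408 and lost in 130. Gpnmb kept it in all 11 settings in which it was tested and Plaur in all 14. Gpnmb was not tested without doublets or with fewer than 10 UMIs of other cell types. Both of these settings remove the cell that held all 4 Gpnmb UMIs of the Spp1-high cells of library 1.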
